A study of Mus musculus with 8 samples.

Results

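The 9 genes described here encode components of the complement system, C1qa, C1qb, C1qc, C2, C3, C4b, Cfd and the inhibitor gene Serping1, together with the ficolin gene Fcna. They were measured in white fat of the epididymal pad, which lies next to the testis, on Affymetrix 3′ expression arrays with 1 array per mouse. The 4 LPA4-KO mice were males with a deficient allele of Lpar4 (Lpar4 -/Y), the X-linked gene of LPA4, through which cells sense the lipid lysophosphatidic acid, and the 4 WT mice were wild-type male littermates. Both groups had the C57BL/6 background, were 12 weeks old and ate standard chow. The comparison asks how local production of complement genes differs in fat between these genotypes. The sources used here do not give the part of Lpar4 removed or the cells in which it is deficient.

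Every probe set that the platform annotation lists for a member gene was used, which gave 11 of the 45101 probe sets of the array. Of these, 10 carry 1 gene symbol and cover 6 members: C1qa, C1qb (3 probe sets), C1qc, Fcna, C2 (3 probe sets) and Serping1. C4b is represented by 1 probe set, 1418021_at, listed for both C4a and its close copy C4b, so its signal cannot be assigned to either gene and is called C4a/C4b below. C3 and Cfd have no probe set in the annotation used here and were not analysed here, so the adipocyte-made side of the system has no member of its own below, and marker genes of adipocytes are given beside the others. All 11 probe sets varied, meaning that their highest and lowest arrays lay over 0.1 log2 apart, as did 6682 of the 34945 probe sets with 1 gene symbol.

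Complement is a cascade of plasma and tissue proteins that tags particles for uptake and lyses cells. In the classical pathway C1q, built of A, B and C chains, binds its target and activates the proteases C1r and C1s, which cleave C4 and C2 into the enzyme that activates C3. Ficolins bind sugars on particles and start the lectin pathway, which meets the classical pathway at C4 and C2, while factor D, the product of Cfd and also known as adipsin, is needed for the alternative pathway. C1q is made mainly by macrophages and dendritic cells and ficolin A in the mouse by macrophages and liver, C4 and the C1 inhibitor (Serping1) are made by fibroblasts among other cells, C2 by macrophages and other cells, C3 by many cell types, and factor D in fat by adipocytes. The sources overlap, so the grouping by cell below is a convention and not a measurement.

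Values are log2 signals as deposited. A group mean is given with its SD (n = 4), and a difference (LPA4-KO minus WT) with its SE from limma. Fcna was the only member probe set of the 10 with 1 gene symbol to pass limma's test at a Benjamini-Hochberg adjusted p under 0.05, and it fell in LPA4-KO fat. The same test called 0.933% of all 34945 such probe sets, 0.321% as lower and 0.612% as higher in LPA4-KO fat. Probe sets that did not vary made up 80.9% of the 34945 but 23% of the 326 called. All member probe sets varied, and the rate among varying probe sets was higher than 0.933%. The 0.933% is therefore not a like-for-like background for the members. All 11 member differences were negative, with a median of -0.21 log2, where the median over all varying probe sets was -0.05 and 56.8% of them were negative. Several of the 11 probe sets belong to the same gene, so the shared sign does not count independent members. For the C1q chains and C2 every limma confidence interval reached from a negative to a positive value. A lower level is therefore not shown for these genes. The members split by size of difference: Fcna, C4a/C4b and Serping1 lay between -0.89 and -0.53, and the C1q chains and C2 between -0.37 and -0.11. The plot of all member probe sets by mouse shows this split.

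**Figure D1:**
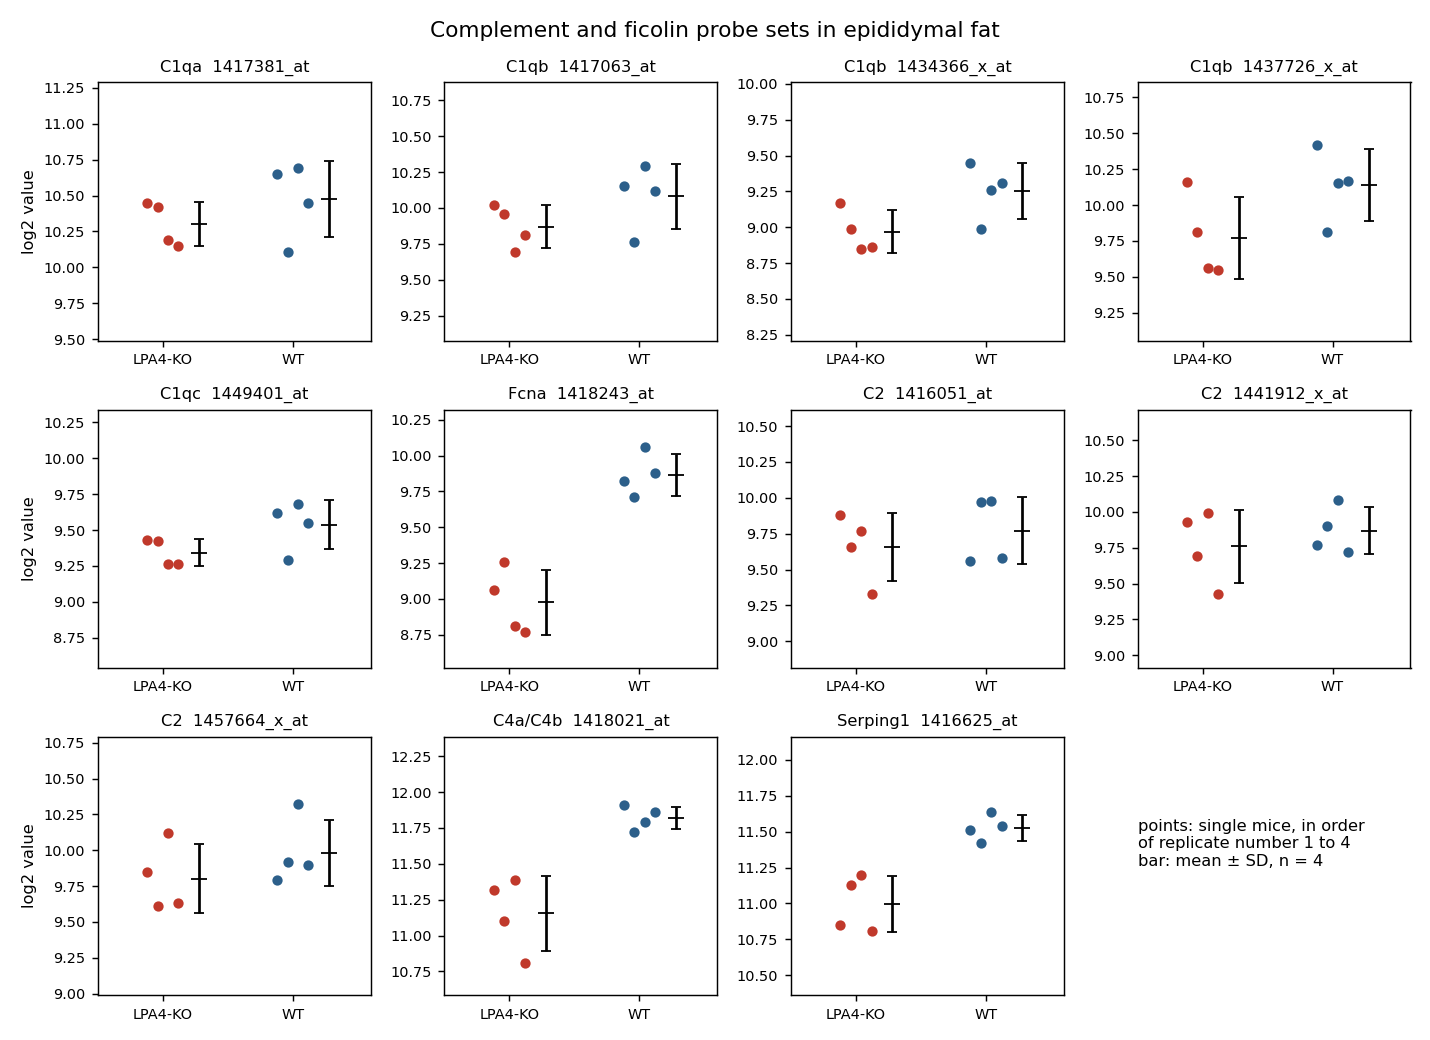
Log2 value (vertical axis, 1.8 log2 in every panel) of each member probe set in LPA4-KO (left) and WT (right) mice. Points are single mice and bars are mean ± SD (n = 4). The genotypes do not overlap for Fcna, C4a/C4b and Serping1 and overlap in the other 8 panels.

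The arrays were alike in overall signal. Array medians lay between 6.5 and 6.51 in both genotypes, and each array's median correlation with the others across probe sets was at least 0.99. The 3′ to 5′ difference of the Actb control probe sets ran from 1.21 to 1.33 in LPA4-KO and from 1.14 to 1.22 in WT arrays, and that of Gapdh from 0.56 to 0.60 in LPA4-KO and from 0.57 to 0.63 in WT arrays. The part of these quality measures in the results was not tested. At 1 of the 3 probe sets of Lpar4, 1452424_at, the signal was lower in LPA4-KO fat (-0.71 ± 0.03, limma adjusted p = 0.00334). There the LPA4-KO arrays lay between 5.74 and 5.86 and the WT arrays between 6.48 and 6.54. Both others had a higher mean in LPA4-KO fat, the opposite direction, with overlapping groups and without passing the test. Values at 1434186_at ran from 6.57 to 7.69 in LPA4-KO and from 6.22 to 6.66 in WT mice (0.68 ± 0.24, limma adjusted p = 0.233). Those at 1439665_at ran from 6.71 to 7.94 in LPA4-KO and from 6.75 to 6.95 in WT mice (0.48 ± 0.25, limma adjusted p = 0.392). Whether any of the 3 lies in the removed part of the gene is unknown here. The adipocyte genes Adipoq and Fabp4 had means of 13.83 and 13.40 in both genotypes, near the top of the scale, while the 4 measured epididymis markers, Adam7, Defb1, Lcn5 and Rnase10, were nearly constant, so the table cannot show whether epididymal tissue was carried along.

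Among the macrophage-made members, Fcna, which encodes ficolin A, a recognition protein with a collagen-like stalk and a sugar-binding head, stood apart from the C1q chains. At its probe set, 1418243_at, LPA4-KO replicates 1 to 4 had log2 values of 9.06, 9.26, 8.81 and 8.77, against 9.82, 9.71, 10.06 and 9.88 in WT replicates 1 to 4. The highest LPA4-KO mouse lay below the lowest WT mouse, so the groups did not overlap. The means were 8.98 ± 0.23 in LPA4-KO and 9.87 ± 0.15 in WT fat, a 1.85-fold lower level (95% interval 1.49 to 2.30; log2 difference -0.89 ± 0.13, limma adjusted p = 0.0444). Of the 6682 varying probe sets, 28 (0.419%) had a more negative difference. The call was close to the threshold: adjusted over all non-control probe sets the limma p was 0.05003, and it lay between 0.075 and 0.119 when 1 array was left out, for each of the 8 arrays, while the difference stayed between -0.98 and -0.82. In the varying probe sets fitted alone the adjusted p was 0.00663, where 10.5% of probe sets were called lower.

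The 3 C1q chains, which together form the stem and heads of the C1q molecule, differed by less than the test could separate. C1qa, at 1417381_at, had 10.45, 10.42, 10.19 and 10.15 in LPA4-KO mice, against 10.65, 10.11, 10.69 and 10.45 in WT mice. C1qb had 10.02, 9.96, 9.69 and 9.81 in LPA4-KO mice, against 10.15, 9.76, 10.29 and 10.12 in WT mice at 1417063_at. C1qc, at 1449401_at, had 9.43, 9.42, 9.26 and 9.26 in LPA4-KO mice, against 9.62, 9.29, 9.68 and 9.55 in WT mice. At each of these probe sets WT replicate 3 was the highest of all mice. WT replicate 2 was the lowest WT mouse and lay inside the LPA4-KO range or, for C1qa, below it. At the other C1qb probe sets, 1434366_x_at and 1437726_x_at, WT replicate 1 was the highest mouse, at 9.45 and 10.42. The differences were -0.17 ± 0.15 for C1qa, -0.21 ± 0.13 for C1qb and -0.19 ± 0.09 for C1qc (limma adjusted p = 0.626, 0.476 and 0.366). The 95% intervals, -0.53 to 0.19, -0.53 to 0.10 and -0.42 to 0.03, reach from a 1.44-fold lower level for C1qa and C1qb to a higher one, so the result does not show that C1q was equal in both genotypes. Without WT replicate 2 the differences were -0.29, -0.32 and -0.28, and without WT replicate 3 they were -0.10, -0.14 and -0.15, with no call in either case (limma adjusted p from 0.149 to 0.816).

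The other C1qb probe sets gave larger differences with the same outcome of the test. At 1434366_x_at LPA4-KO mice ranged from 8.85 to 9.17 and WT mice from 8.99 to 9.45 (-0.28 ± 0.12, limma adjusted p = 0.298). At 1437726_x_at LPA4-KO mice ranged from 9.55 to 10.16 and WT mice from 9.81 to 10.42 (-0.37 ± 0.18, limma adjusted p = 0.374). Both carry the suffix x, which marks probe sets with probes that may also match other transcripts. At the leading probe sets, those with the highest mean, the distance between the chains overlapped between the genotypes. The value of C1qb minus that of C1qa lay between -0.50 and -0.34 in LPA4-KO and between -0.50 and -0.33 in WT mice, and C1qc minus C1qa between -1.03 and -0.89 in LPA4-KO and between -1.03 and -0.82 in WT mice. At 1434366_x_at the distance to C1qa ran from -1.43 to -1.28 in LPA4-KO and from -1.43 to -1.12 in WT mice. At 1437726_x_at it ran from -0.63 to -0.30 in LPA4-KO and from -0.54 to -0.23 in WT mice. It varied more than at the leading C1qb probe set, except in LPA4-KO mice at 1434366_x_at (SD 0.071 against 0.068). These spreads between mice are of the same order as the C1q differences between the genotypes, and the level of one probe set against another has no meaning here. In the RefSeq gene table C1qb, C1qc and C1qa follow each other with 0 annotated genes between them.

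Relative to general macrophage markers C1q overlapped between the genotypes, and Fcna did not. The mean of the 3 chains was 9.97, 9.94, 9.71 and 9.74 in LPA4-KO mice, against 10.14, 9.72, 10.22 and 10.04 in WT mice. Of 18 listed macrophage markers all were measured and 15 varied, 13 of them negative with a median of -0.24 log2. Their mean lay between 9.25 and 9.49 in LPA4-KO and between 9.41 and 9.69 in WT mice, and 0 of the 18 passed limma's test over all probe sets at an adjusted p under 0.05 (7 were lower and 0 higher at any probe set at an unadjusted p under 0.05, where 11.4% of all 18193 genes were lower). In the varying probe sets fitted alone 5 of the 15 were called lower, where 11.5% of the 4646 genes with a varying probe set were. Defining markers with a nearly constant value were Adgre1, Fcgr1 and Ms4a7. The C1q mean minus the marker mean was 0.45 to 0.57 log2 in LPA4-KO and 0.30 to 0.54 in WT mice, so the groups overlapped, with a difference of 0.05. Fcna minus the same marker mean was -0.52 to -0.23 in LPA4-KO and 0.20 to 0.37 in WT mice, and Fcna minus the C1q mean was -0.97 to -0.68 in LPA4-KO and -0.32 to -0.01 in WT mice. Fcna lay lower in every LPA4-KO mouse than in every WT mouse also relative to these genes of the same array, by 0.65 log2 against the markers and 0.70 log2 against C1q. In whole tissue, fewer cells of a type and less RNA per cell cannot be told apart, and the part of macrophage number in the C1q and Fcna differences was not tested.

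Some myeloid markers lay lower in LPA4-KO fat beside Fcna, with groups that did not overlap, as was found in 15.4% of all varying probe sets. They include the 5 macrophage markers called in the varying probe sets fitted alone, of which Folr2 and Clec10a were picked after their values were seen. Folr2, a folate receptor gene of resident macrophages, ran from 8.16 to 8.60 in LPA4-KO and from 8.75 to 9.30 in WT mice (-0.62 ± 0.17), and Retnla, a gene of alternatively activated macrophages, from 10.94 to 11.36 in LPA4-KO and from 11.53 to 11.86 in WT mice (-0.54 ± 0.11). The lysozyme gene Lyz2 differed by -0.42 ± 0.09, the lectin gene Clec10a by -0.39 ± 0.10 and Mpeg1, which encodes a pore-forming protein, by -0.31 ± 0.05. Over all probe sets the limma adjusted p of these 5 lay between 0.0602 and 0.143. Cd68, another marker of the list, did not overlap either, by a narrow margin, and was called in neither fit (-0.29 ± 0.10, limma adjusted p = 0.236 over all probe sets). It ran from 8.3588 to 8.6384 in LPA4-KO and from 8.6406 to 9.0374 in WT mice. The remaining varying markers of the macrophage list overlapped, such as Cd163 (-0.01 ± 0.19), Mrc1 (-0.17 ± 0.12) and Lyve1 (-0.30 ± 0.27). Aif1 and Mertk lay on the other side (0.02 ± 0.12 and 0.075 ± 0.175), with overlap. Of 6 listed neutrophil and monocyte markers 4 were measured and 3 varied, all negative with a median of -0.21 log2, and their mean lay between 6.88 and 7.15 in LPA4-KO and between 7.28 and 7.36 in WT mice, without overlap. The monocyte chemokine receptor gene Ccr2 ran from 7.48 to 8.14 in LPA4-KO and from 8.27 to 8.71 in WT mice (-0.72 ± 0.17, limma adjusted p = 0.117). Of its other probe sets, 1421188_at did not overlap (-0.81 ± 0.21), 1421187_at overlapped (-0.46 ± 0.13) and 1460067_at was nearly constant. S100a8 and S100a9, genes of neutrophil proteins, differed by -0.21 ± 0.18 and -0.07 ± 0.04, and Csf3r was nearly constant. In this list 0 genes passed over all probe sets. At an unadjusted limma p under 0.05, 1 was lower and 0 higher, where 11.4% of all genes were lower and 14.3% higher. The part of these cells in the Fcna difference was not tested.

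**Figure D2:**
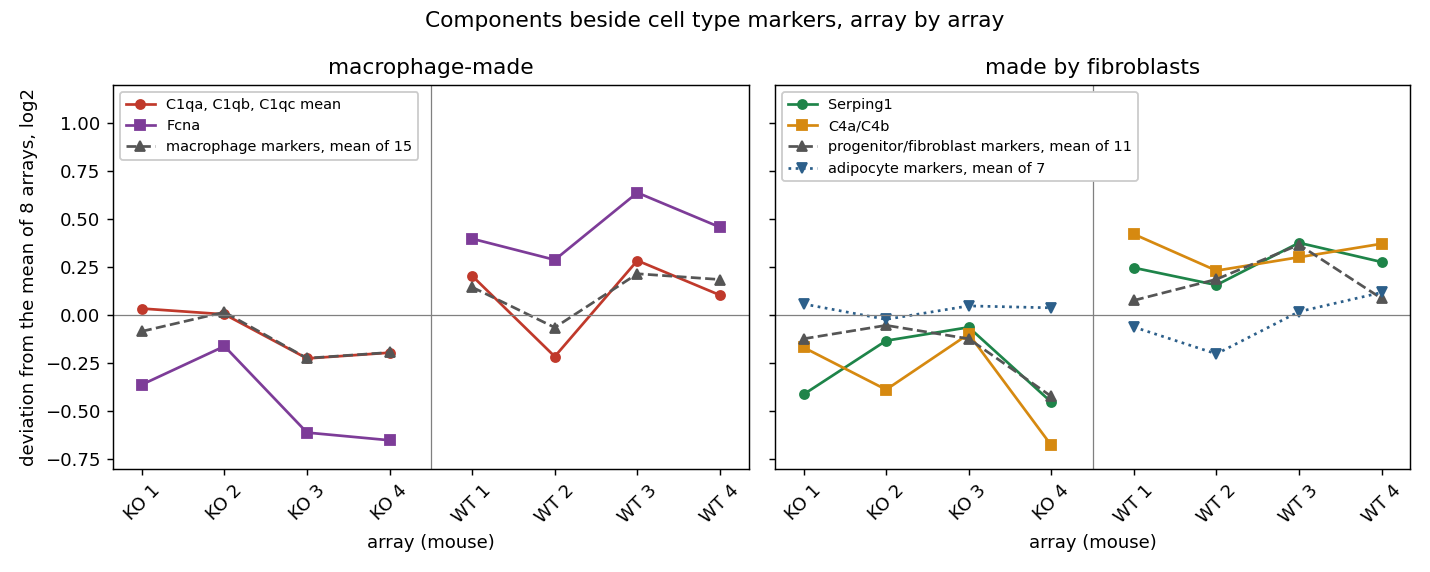
Deviation of each array from the mean of the 8 arrays (log2) for macrophage-made members (left panel) and members made by fibroblasts (right panel), each beside the mean of the varying marker genes. The C1q mean and the macrophage markers overlap between the genotypes. Fcna, Serping1 and C4a/C4b lie below 0 in all 4 LPA4-KO mice and above 0 in all 4 WT mice. The mean of the progenitor and fibroblast markers does so too.

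The stretches around the transcription starts of Fcna, C1qb and C1qc are shown because Fcna fell while the C1q chains did not pass the test. They are the RefSeq promoter windows of GRCm38.p6, 250 bases before to 50 after the annotated start, on the minus strand, at chr2:25627925-25628224 for Fcna, chr4:136886151-136886450 for C1qb and chr4:136892865-136893164 for C1qc. Capitals mark GAGGAA or its reverse complement TTCCTC, a longer form of GGAA. GGAA is the core of sites bound by ETS factors such as PU.1, a main regulator of macrophage genes. Other GGAA or TTCC letters in the windows are neither marked nor counted.
Fcna: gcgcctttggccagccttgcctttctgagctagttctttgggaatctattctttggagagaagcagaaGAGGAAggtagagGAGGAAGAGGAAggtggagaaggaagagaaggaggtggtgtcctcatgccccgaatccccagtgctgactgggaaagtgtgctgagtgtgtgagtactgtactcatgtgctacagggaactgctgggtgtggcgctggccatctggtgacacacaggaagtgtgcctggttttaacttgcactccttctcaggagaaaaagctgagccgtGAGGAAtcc
C1qb: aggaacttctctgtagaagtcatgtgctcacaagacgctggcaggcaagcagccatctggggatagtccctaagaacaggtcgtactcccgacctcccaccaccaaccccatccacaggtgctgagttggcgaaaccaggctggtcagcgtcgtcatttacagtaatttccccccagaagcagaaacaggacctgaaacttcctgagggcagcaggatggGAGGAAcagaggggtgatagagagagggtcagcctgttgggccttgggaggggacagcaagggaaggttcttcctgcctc
C1qc: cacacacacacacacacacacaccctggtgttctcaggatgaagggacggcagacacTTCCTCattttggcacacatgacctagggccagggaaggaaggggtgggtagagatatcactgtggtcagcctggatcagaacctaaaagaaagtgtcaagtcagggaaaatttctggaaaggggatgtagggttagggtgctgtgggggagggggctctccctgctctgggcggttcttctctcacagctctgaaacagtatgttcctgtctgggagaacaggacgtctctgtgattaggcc
The Fcna window holds 4 matches, 182, 169 and 163 bases before the start and 41 bases after it, where neighbouring matches touch but do not overlap, in a stretch rich in G and A. The C1qb window holds 1 match, 30 bases before the start, and the C1qc window holds 1, on the other strand, 193 bases before it. Of all 32851 RefSeq windows, 28.3% hold at least 1 match and 0.125% at least 4. The letters were chosen with the Fcna result known, and 4 is the Fcna count itself. The 0.125% is therefore no test of Fcna. A match is a run of letters and not a binding site, and the arrays carry no reading of binding or of promoter use.

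C2, the serine protease that C1s cleaves beside C4, showed small differences at all 3 of its probe sets, with overlapping groups. At 1457664_x_at, the probe set with the highest mean, LPA4-KO mice had 9.85, 9.61, 10.12 and 9.63, against 9.79, 9.92, 10.32 and 9.90 in WT mice. The difference was -0.18 ± 0.16 (95% interval -0.56 to 0.21, limma adjusted p = 0.642). At 1416051_at the difference was -0.11 ± 0.16 and at 1441912_x_at -0.11 ± 0.15 (limma adjusted p = 0.791 and 0.775). LPA4-KO replicate 4 was the lowest mouse at both, and without it these differences were close to 0, at -0.0022 and 0.0009.

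The members made by fibroblasts lay lower in every LPA4-KO mouse than in any WT mouse, without passing the test over all probe sets. Serping1, whose product inactivates C1r, C1s and the lectin pathway proteases, had 10.85, 11.13, 11.20 and 10.81 in LPA4-KO mice, against 11.51, 11.42, 11.64 and 11.54 in WT mice at 1416625_at. The means were 10.997 ± 0.194 in LPA4-KO and 11.527 ± 0.090 in WT fat, a difference of -0.53 ± 0.10 (limma adjusted p = 0.081), or a 1.44-fold lower level with a 95% interval of 1.22 to 1.72. In the varying probe sets fitted alone its limma adjusted p was 0.0119. The spread among LPA4-KO mice exceeded that among WT mice, with replicates 1 and 4 lowest.

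C4, the source of the fragment C4b that holds the classical and lectin convertase on a surface, was read by the shared probe set. C4a/C4b had 11.32, 11.10, 11.39 and 10.81 in LPA4-KO mice, against 11.91, 11.72, 11.79 and 11.86 in WT mice. All LPA4-KO mice lay below all WT mice, with LPA4-KO replicate 4 farthest. The means were 11.15 ± 0.26 in LPA4-KO and 11.82 ± 0.08 in WT fat, a difference of -0.66 ± 0.13 (1.58-fold lower, 95% interval 1.28 to 1.97; limma adjusted p = 0.0876 over all non-control probe sets, of which 0.668% were called). Groups that did not overlap with lower LPA4-KO values were found in 3 of the 11 member probe sets and in 15.4% of all varying probe sets, so such separation was common in these data.

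Markers of adipocyte progenitors and fibroblasts moved in the same direction as these members. All 12 listed markers were measured and 11 varied, all negative with a median of -0.35 log2. At any probe set at an unadjusted limma p under 0.05, 7 were lower and 0 higher, where 11.4% of all genes were lower and 14.3% higher. In the varying probe sets fitted alone 6 of the 11 were called lower, where 11.5% of the 4646 genes with a varying probe set were. In the fit over all probe sets, which called 0.321% of them lower, Dcn and Dpt, genes of matrix proteins, fell (Dpt -0.43 ± 0.04, limma adjusted p = 0.0258; Dcn -0.57 ± 0.08 at 1441506_at, limma adjusted p = 0.0401). The Dcn call comes from a probe set of low signal, with means of 7.07 in LPA4-KO and 7.64 in WT fat. At its leading probe set, 1449368_at, the means were 13.15 in LPA4-KO and 13.40 in WT fat (-0.25 ± 0.09, limma adjusted p = 0.246), so the probe sets of Dcn disagree in size. Dpp4, a progenitor marker, differed by -0.61 ± 0.14 (limma adjusted p = 0.101). With 1 array left out Dpt kept its call in 1 of 8 fits (limma adjusted p from 0.0492 to 0.0748) and Dcn in 0 (0.057 to 0.1088). The mean of the varying markers lay between 9.41 and 9.78 in LPA4-KO and between 9.91 and 10.20 in WT mice, and Gsn was nearly constant. Relative to that mean, Serping1 lay at 1.14 to 1.49 log2 in LPA4-KO and 1.40 to 1.61 in WT mice. C4a/C4b lay at 1.32 to 1.67 in LPA4-KO and 1.59 to 2 in WT mice, so both pairs of groups overlapped. The differences relative to the marker mean were -0.17 log2 for Serping1 and -0.31 log2 for C4a/C4b. The part of fibroblast number in the Serping1 and C4a/C4b differences was not tested. All 6 mesothelial markers were negative too, with a median of -0.58 log2, and their mean ran from 7.90 to 8.38 in LPA4-KO and from 8.28 to 9.17 in WT mice. Of these Gpm6a differed by -1.06 ± 0.29, Upk3b by -0.62 ± 0.22 and Lrrn4 by -0.54 ± 0.18, and 0 passed over all probe sets (limma adjusted p from 0.148 for Gpm6a). At an unadjusted limma p under 0.05, 4 were lower and 0 higher, where 11.4% of all genes were lower and 14.3% higher.

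Adipocyte markers did not move with the complement members. Of 10 listed, 9 were measured and 7 varied, 6 of them positive with a median of 0.11 log2. At an adjusted p under 0.05, 0 passed limma's test over all probe sets or in the varying ones alone. At an unadjusted limma p under 0.05, 1 was higher and 0 lower, where 14.3% of all genes were higher and 11.4% lower. Their mean lay between 11.34 and 11.42 in LPA4-KO and between 11.16 and 11.48 in WT mice. Retn, the resistin gene, was the 1 higher gene, at 13.08 to 13.23 in LPA4-KO and 12.85 to 13.05 in WT mice (0.18 ± 0.06, limma adjusted p = 0.196), and the lipid droplet gene Cidec differed by 0.17 ± 0.07. Adipoq and Fabp4 were nearly constant at the probe set with the highest mean. Of the endothelial markers 3 varied, with a median of -0.32 log2 and 0 called (0 lower and 0 higher also at an unadjusted p under 0.05 in limma): Cldn5 differed by -0.61 ± 0.32 and Emcn by 0.28 ± 0.12, and Cdh5 and Tie1 were nearly constant. Hepatocyte markers were nearly constant for Apoa1 and Ttr, and Alb differed by 0.09 ± 0.14, where the liver is the main source of plasma complement.

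The position of the members among all varying probe sets is drawn in the histogram of differences. Below the difference of Serping1 lay 4.03% of varying probe sets and below that of C4a/C4b 1.54%. For the C1q chains the share was 26.3% to 32.1% at the leading probe sets and 18.1% and 10.9% at the C1qb probe sets 1434366_x_at and 1437726_x_at. For C2 it was 31.3% at the leading probe set and 41.2% and 41.6% at the others.

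**Figure D3:**
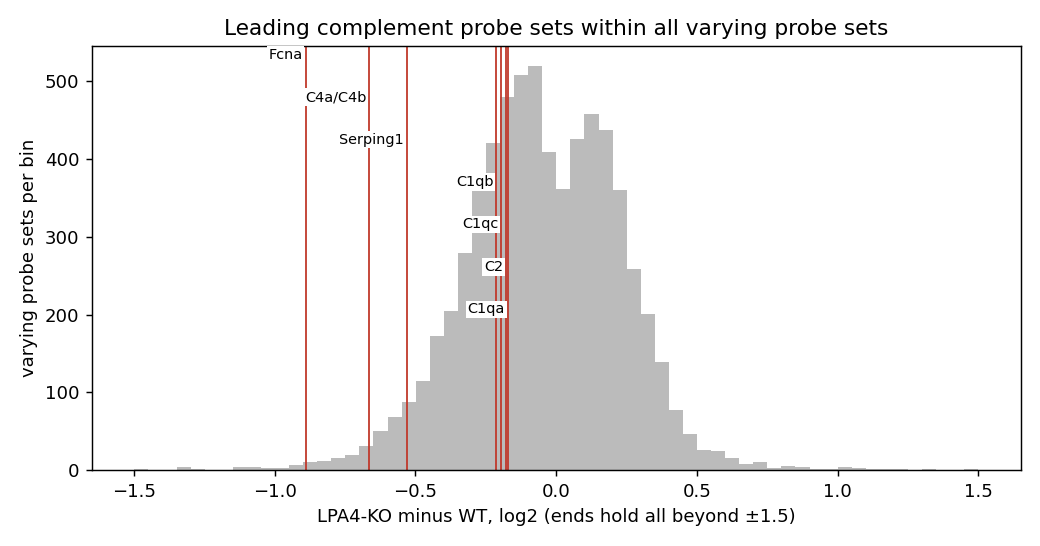
Histogram of LPA4-KO minus WT differences (log2, horizontal axis) of the 6682 varying probe sets, with red lines at the leading probe set of each member. Fcna, C4a/C4b and Serping1 lie in the lower tail at -0.89, -0.66 and -0.53, and the leading probe sets of the C1q chains and C2 lie between -0.21 and -0.17, inside the bulk. The other C1qb probe sets, at -0.28 and -0.37, are not drawn.

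Other genes of the complement system were read from lists of early components, terminal components, regulators and receptors, 49 genes in all. Of these 39 were measured and 15 varied at their leading probe set, 14 with a negative difference and a median of -0.29 log2, where the median over 4029 varying genes was -0.03. At an adjusted p under 0.05, C1s1 and Cd55 fell in LPA4-KO fat and 0 of the 39 rose (10 were lower and 2 higher at an unadjusted p under 0.05 in limma, where 11.4% of all genes were lower and 14.3% higher), counting a gene by any of its probe sets, 68 in all. In the varying probe sets fitted alone 7 of the 15 were called lower and 0 higher, beside the 11.5% of genes called lower in that fit. C1s1, which encodes the protease C1s that is bound by C1q, had 10.15, 10.25, 10.28 and 10.01 in LPA4-KO mice, against 10.75, 10.65, 10.83 and 10.66 in WT mice at 1424041_s_at. The groups did not overlap, and the difference was -0.55 ± 0.07 (1.46-fold lower, limma adjusted p = 0.0356). The call ended in each of the 8 fits without 1 array (adjusted p from 0.0709 to 0.1003), with differences between -0.58 and -0.49. Its partner protease gene C1ra differed by -0.43 ± 0.12 (limma adjusted p = 0.145).

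The remaining varying early components lay on the same side. Cfb, which encodes factor B, the alternative pathway protease cut by factor D, differed by -0.42 ± 0.10, Cfp, the gene of properdin, which stabilises the alternative convertase, by -0.34 ± 0.09, and Masp1, a lectin pathway protease gene, by -0.31 ± 0.11 (limma adjusted p = 0.119, 0.157 and 0.231). The collectin genes Colec12 and Colec11 differed by -0.26 ± 0.07 and -0.06 ± 0.09. Mbl1, Mbl2, Masp2, Fcnb and Colec10 were nearly constant, as were all 6 measured terminal components, Hc (the mouse C5 gene), C6, C8a, C8b, C8g and C9. In this table flat values also occur at strong signals, so a flat gene is not shown to be equal in both genotypes.

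Among the regulators, Cd55, whose product speeds the decay of convertases on cell surfaces, fell at 1 of its 3 probe sets. At 1418762_at LPA4-KO mice had 7.32 to 7.49, against 7.78 to 8.09 in WT mice (-0.56 ± 0.07, limma adjusted p = 0.0355). At the others the difference was -0.33 ± 0.15 (1443906_at) and -0.08 ± 0.12 (1460242_at, the one with the highest mean), so the probe sets of Cd55 disagree in size. The call at 1418762_at ended too in each of the 8 fits without 1 array (limma adjusted p from 0.0527 to 0.1007). Cfi, the gene of the protease factor I, and the receptor gene Cd93 were nearly constant. Clu, the gene of clusterin, which blocks the terminal complex, differed by -0.59 to -0.55 at its 4 probe sets (limma adjusted p from 0.0666 to 0.0913), and Cd59a, another inhibitor of that complex, by -0.27 ± 0.16. Of the receptor genes, Itgam and Itgb2, the chains of complement receptor 3, differed by -0.40 ± 0.14 and -0.21 ± 0.11, C3ar1, the receptor gene of the fragment C3a, by -0.17 ± 0.05 and Vsig4, a macrophage receptor gene for C3 fragments, by -0.29 ± 0.30. C1qbp, whose mitochondrial product also binds C1q, was the only varying gene of these lists on the other side (0.12 ± 0.04). None of the genes in this paragraph other than Cd55 passed limma's test over all probe sets.

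**Figure D4:**
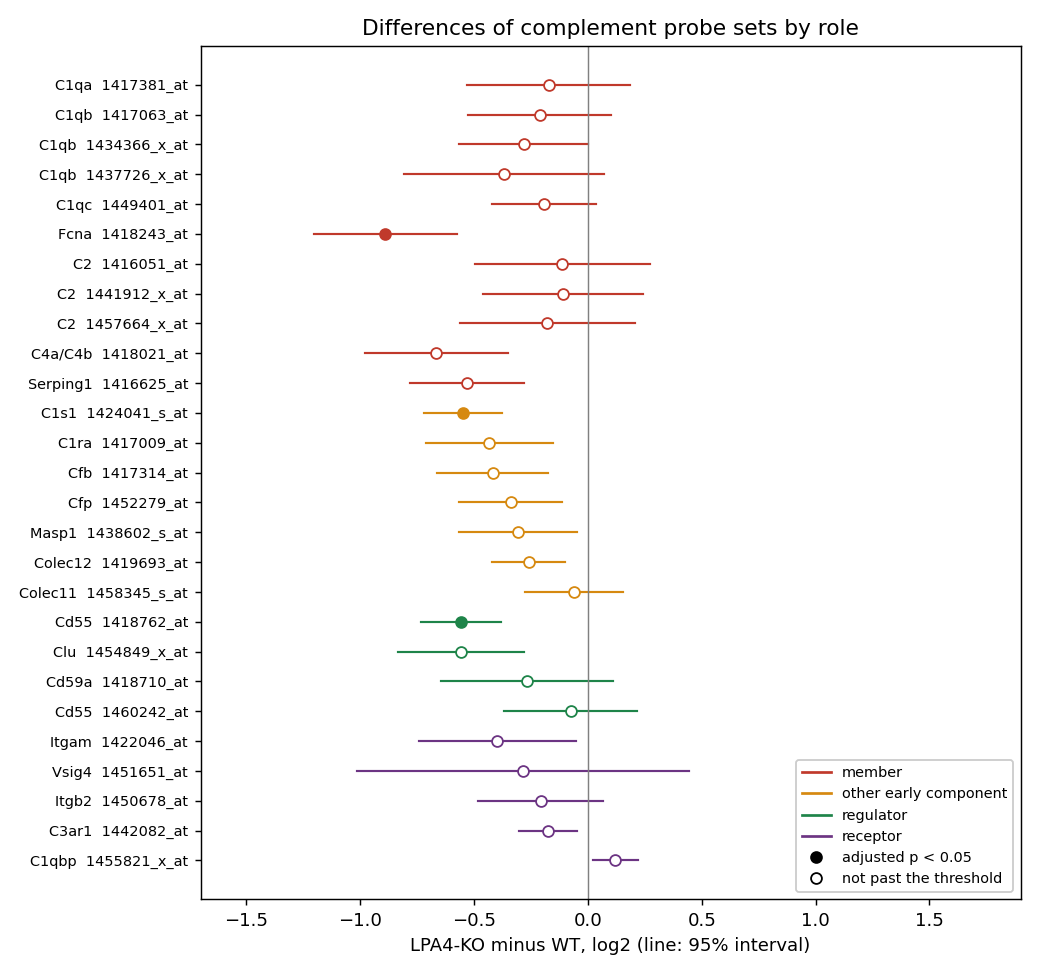
LPA4-KO minus WT difference (log2, horizontal axis) with its 95% interval for every member probe set, and for the varying leading probe sets and any called probe set of other complement genes. Filled points passed limma's adjusted p under 0.05: Fcna, C1s1 and 1 probe set of Cd55, all negative.

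Likeness of pattern was measured as the root mean square difference between profiles over the 8 arrays, each centred on its own mean, among the leading probe sets of 4029 varying genes without the genes compared. The profile closest to the C1q mean was that of Timd4, a marker of resident macrophages and a gene of the macrophage list (0.05 log2), followed by Glb1, which encodes the lysosomal beta-galactosidase, and Ly86, which encodes a partner of a Toll-like receptor relative (0.07 each). The spread of the C1q profile itself was 0.18 log2 on the same measure. The profiles closest to Fcna were those of Fn1, Efemp1 and Fbln5, which encode fibronectin and fibulin proteins of the extracellular matrix (0.11, 0.13 and 0.15, against a spread of 0.47). The fourth, named after its values were seen, was the monocyte marker Ccr2 (0.16). The profiles closest to Serping1 were Gas6, which encodes a ligand of receptor tyrosine kinases, Ddr2, a collagen receptor gene, and C1s1 (0.05, 0.05 and 0.07, against 0.30). The profile closest to C4a/C4b was that of the matrix gene Fbln2 (0.11, against 0.37), followed by 5031426D15Rik and Cilp. These distances take in the difference between genotypes and are descriptions of 8 arrays.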

How the data were processed

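The deposited values are 1 log2 number per probe set and array. Their range, 5.27 to 14.07, was taken to mean a log2 scale, on which every fold rests. R 2.14.0 is named in the submitters' processing notes, and the sources used here do not give the background correction, normalization or summarisation. The platform annotation named the probe sets (34945 with 1 gene symbol, 932 with several), with symbols checked by Entrez number against RefSeq of GRCm38.p6 (34741 matched, 0 changed). No genome build is given for the arrays.

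The genotypes were compared by limma (version 3.58.1, R 4.3.3; lmFit and eBayes with a trend) over all 34945 probe sets with 1 gene symbol, with Benjamini-Hochberg adjustment, no filter and no block. The shared C4a/C4b probe set was tested in the fit of all non-control probe sets. The steps were tested on simulated data. The number of arrays, 4 per group, limits the precision, and nothing but the labels' word biological says how far the replicates are independent.

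The members, lists and alternatives were chosen with earlier results of these data known, including the 0.1 log2 limit for varying probe sets. The rule for named genes takes every member probe set, and from each other list the called genes, the 2 with the smallest p and the 2 with the highest mean. The other varying complement genes were added after their values were seen, so that each varying gene of those lists is given. The letters GAGGAA were chosen with the Fcna result known. Likeness was measured for the profiles with a probe set. Results of alternatives are given in the closing section.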

Additional observations from a re-analysis of the deposited data

How the results depend on the processing

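With 4 arrays per group the calls depend on the settings, the directions of the members much less. In 8 of the 20 settings the difference is the same by construction. In the other 12, over 11 member probe sets, 131 of 132 differences kept their sign, the exception being C2 at 1441912_x_at without LPA4-KO replicate 4 (0.0009; -0.19 to 0.0009 with each array left out). At the 0.05 threshold Fcna kept its call in 9 of 19 alternatives and lost it in all 8 that left out 1 array, over all non-control probe sets and with the replicate block (limma adjusted p = 0.1834, difference -0.89). Its adjusted p ran from 0.00578 to 0.183 over these alternatives. The count of called probe sets, 326 of 34945, was 239 with 1 probe set per gene, 595 among probe sets above the median level, 535 with array weights, 1259 in the varying probe sets alone (558 higher, 701 lower) and 1288 in those with median centring (712 higher, 576 lower). It was 21927 after quantile normalization and 28378 after median centring, where 20753 and 27044 were called higher against 214 of the 326 with the values as deposited, and 89.2% and 91% of these calls were probe sets that did not vary, against 23% of the 326. It was 3 with the replicate block and 1126 at an adjusted p under 0.10, a threshold added after seeing the data. With 1 array left out the count ran from 10 to 125. The count of called member probe sets, 1 of 10, was 0 over all non-control probe sets and with the replicate block, 2 in the varying probe sets alone, with or without centring, after quantile normalization, after median centring and at an adjusted p under 0.10, and 0 in each fit without 1 array (lowest 0, highest 0). Deviations of same-numbered arrays correlated between -0.202 and 0.273, and those of differently numbered arrays between -0.265 and 0.289. With 4 arrays per group these values cannot decide whether the replicate numbers pair the mice. The filters on features left some member probe sets out, which then have no value. What stands above background was not measured in this table.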
